A study of Mus musculus with 24 samples.

Results

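The transcripts described here are those of 10 genes of transforming growth factor beta (TGF-beta) and bone morphogenetic protein (BMP) signalling, namely Tgfb1, Tgfbr1, Tgfbr2, Bmpr1a, Bmpr2, Smad3, Smad6, Smad7, Skil and Tgif1. They were found on mouse Illumina bead arrays as the probes whose only gene symbol was that of a member, which gave 25 of 45281 probes and 10 of the 19057 genes with a symbol. All 10 members had at least 1 probe. Of these, 8 were detected well enough to be tested among 9917 genes, and Bmpr1a and Smad7 were not. RNA came from bone marrow-derived macrophages (BMMs) of C57BL/6 male mice aged 5 weeks, with no allele or transgene named. Marrow cells were kept for 24 h, the floating cells were grown for 72 h with macrophage colony-stimulating factor (M-CSF) at 30 ng/mL, and the attached cells then received M-CSF at 30 ng/mL with RANKL, the cytokine that drives osteoclast formation, at 100 ng/mL. The 4 groups were 0, 24, 48 and 72 h of RANKL with 6 arrays each, 24 in all, and every group had received M-CSF. No cells held in M-CSF without RANKL for the later times were among the arrays, so the effects of RANKL and of time in culture cannot be told apart. The sources used here do not say whether the arrays of a time stand for separate animals, so the p-values measure the spread between arrays, which may be technical.

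TGF-beta binds the type II receptor TGFBR2, which recruits and phosphorylates the type I receptor TGFBR1, and this in turn phosphorylates SMAD2 and SMAD3. BMPs act in the same way through BMPR2 and type I receptors such as BMPR1A on SMAD1, SMAD5 and SMAD9, while SMAD6 and SMAD7 inhibit the receptors and SKIL and TGIF1 act as nuclear corepressors of the Smads. In bone, TGF-beta is stored in the matrix and released by resorption, and it is known to promote RANKL-driven osteoclast formation when it acts on the precursors.

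The main pattern was a change of Tgfbr1, Tgfbr2, Bmpr2 and Smad3 between the first and the second day. With the brightest probe of each gene, Tgfbr2, Bmpr2 and Tgif1 were at least 1.5-fold lower at 24 h than at 0 h and no member was higher. The other kept probes of Tgif1 were higher, as was the dimmest kept probe of Tgfbr1, which no array at 0 h detected. From 24 to 48 h Tgfbr2 rose 3.77-fold, Smad3 2.31-fold, Tgfbr1 2.22-fold, Bmpr2 2.05-fold and Tgif1 1.72-fold. In the same step the other kept probes rose by less, with log2 changes of 0.93 and 0.13 for Tgfbr2, 0.52 and 0.48 for Tgfbr1, 0.71 for Smad3, and 0.53 and 0.40 for Tgif1. With the brightest probe, each of these 5 genes changed less from 48 to 72 h than from 24 to 48 h and no tested member reached 1.5-fold, but another probe of Tgif1 rose by 0.62 on the log2 scale. The inhibitory Smad6, the ligand Tgfb1 and the corepressor Skil were lower than at 0 h at each later time with the brightest probe. The small change of Tgfb1 at 72 h did not pass without replicate 4 or without replicate 6 of 0 h. For Skil the other kept probe passed only at 48 h, and Smad6 was near the array background after 0 h.

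The members that rose at least 2-fold from 24 to 48 h are shown by the 300 bases around a transcript start, because these members rose the most in that step. The windows run from 250 bases before the start, with the first base of the transcript at position 251 counted from 1 at the 5′ end, and were taken from RefSeq on assembly GRCm38.p6. In mouse they lie at chr4:47352972-47353271 on the plus strand for Tgfbr1, chr9:116175314-116175613 on the minus strand for Tgfbr2, chr1:59764029-59764328 on the plus strand for Bmpr2 and chr9:63757945-63758244 on the minus strand for Smad3. Each covers the end of the upstream flank and the start of the first exon of that transcript. Capitals mark matches to CAGACA, the core of a Smad-binding CAGA box, to GGCGCC, a GC-rich Smad element, or to TGANTCA, the AP-1 site, searched on both strands.
Tgfbr1: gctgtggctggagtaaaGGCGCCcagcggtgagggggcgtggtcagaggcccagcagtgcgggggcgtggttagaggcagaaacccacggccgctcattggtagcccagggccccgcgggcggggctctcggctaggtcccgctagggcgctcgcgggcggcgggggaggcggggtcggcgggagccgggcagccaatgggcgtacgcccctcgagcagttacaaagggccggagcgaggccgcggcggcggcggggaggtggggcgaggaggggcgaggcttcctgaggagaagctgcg
Tgfbr2: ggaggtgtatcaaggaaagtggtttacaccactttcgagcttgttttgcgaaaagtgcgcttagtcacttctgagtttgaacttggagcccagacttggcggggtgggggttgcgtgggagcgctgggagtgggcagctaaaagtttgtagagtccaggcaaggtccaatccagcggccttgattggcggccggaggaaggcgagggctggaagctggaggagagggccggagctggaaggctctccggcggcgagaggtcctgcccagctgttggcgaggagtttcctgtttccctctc
Bmpr2: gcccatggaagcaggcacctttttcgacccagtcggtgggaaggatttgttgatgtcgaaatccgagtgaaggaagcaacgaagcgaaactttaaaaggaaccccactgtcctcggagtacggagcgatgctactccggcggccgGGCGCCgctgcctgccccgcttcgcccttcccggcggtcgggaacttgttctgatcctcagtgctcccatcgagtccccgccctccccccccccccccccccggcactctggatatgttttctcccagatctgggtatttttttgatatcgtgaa
Smad3: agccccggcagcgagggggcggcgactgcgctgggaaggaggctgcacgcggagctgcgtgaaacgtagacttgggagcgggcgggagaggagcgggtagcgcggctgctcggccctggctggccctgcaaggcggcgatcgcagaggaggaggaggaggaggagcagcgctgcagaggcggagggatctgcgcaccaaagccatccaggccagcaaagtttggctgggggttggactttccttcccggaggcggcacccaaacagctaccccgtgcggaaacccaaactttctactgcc
GGCGCC occurred once in the windows of Tgfbr1 and Bmpr2, and none of the 3 motifs occurred in those of Tgfbr2 and Smad3. No motif match overlapped another. Over all 32851 promoter windows of this length, 21% held CAGACA, 11.9% held GGCGCC and 7.81% held TGANTCA. The GC content was 74.7% for Tgfbr1, 59% for Tgfbr2, 59.3% for Bmpr2 and 67.7% for Smad3. A further window of Tgfbr1, at an internal start, held 1 CAGACA, and the window of Bmpr1a held 1 GGCGCC. Matching by symbol gave a window for 8 of the 10 members, and Skil and Smad7 had no entry. A match is only a run of letters here, and binding was not measured.

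The arrays had median signals between 89.5 and 122, and each detected between 15781 and 17109 probes at a detection p under 0.05. Over the genes tested, arrays within a time correlated at a Pearson's r of 0.994 to 0.998, and no array stood apart. The macrophage label was borne out by Adgre1, Csf1r and Cd14, each detected on all arrays. The summed signal of the 8 tested osteoclast markers rose from 4563 to 4961 at 0 h to 11298 to 11913 at 24 h, 36710 to 40862 at 48 h and 30290 to 33534 at 72 h. From 24 h on this sum was mostly Ctsk and Mmp9. Of the 8, 7 were higher than at 0 h at each time, and Itgb3 passed at none. Acp5, Dcstamp, Ocstamp and Oscar entered the test only through later times, and Calcr and Atp6v0d2 were not tested. Markers of neutrophils and their precursors fell over the same course, 12 of 12 tested being lower at each time, with sums of 59403 to 64631 at 0 h and 11179 to 12509 at 72 h. Of the erythroid and megakaryocyte markers, 4 of 4 tested were lower at 24 h and 3 at each later time, with sums of 5971 to 7435 at 0 h and 1236 to 1461 at 72 h. These sums were mostly Pf4, a megakaryocyte gene, whose mean log2 signal was 12.44 at 0 h and 9.49 at 72 h. The erythroid gene Hba-a1 changed by -1.83, -1.80 and -0.56 at 24, 48 and 72 h. It was detected on 0 arrays at 24 and 48 h and on 6 at 72 h, and Epor did not pass at 48 or 72 h. The summed signal of the 5 tested macrophage markers was 15774 to 17755 at 0 h, 15711 to 17818 at 24 h, 24315 to 26023 at 48 h and 21703 to 23834 at 72 h, and so was higher from 48 h on, as were Tgfbr1 and Tgfbr2. Not all 5 rose, with 1, 3 and 3 higher and 2, 1 and 2 lower than at 0 h at 24, 48 and 72 h, and Cd14 lower at each time. The part of these cell types in the changes below was not tested, and in such mixed RNA fewer cells of a type and less RNA per cell cannot be told apart.

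Against this background of wide change, the 8 tested members were counted beside all 9917 genes. A change was called at a Benjamini-Hochberg adjusted p under 0.05 from limma. At 24 h, 0 members were higher than at 0 h (29.2% of all genes) and 6 were lower (37.8%), of which 3 changed by 1.5-fold or more (9.71% of all genes). This split turned on the probe, as it was 1 higher and 4 lower with the second-brightest probe, and 0 and 5 with the mean of the kept probes. Tgif1, among the 6 and the 3, was higher with its other kept probes. At 48 h, 4 were higher than at 0 h (33.1%) and 3 lower (39.2%), and of these 3 and 1 reached 1.5-fold (10.8% and 12.2%). At 72 h, 4 were again higher than at 0 h (34.2%) and 3 lower (39.4%), with 3 and 1 at 1.5-fold or more (11.7% and 13.7%).

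From 24 to 48 h, 5 members were higher (39.2% of all genes) and 1 was lower (34.6%), which was Smad6, near the array background at both times, and all 5 that rose reached 1.5-fold (14.8%). From 48 to 72 h, 3 were higher (17.4%) and 2 lower (19.4%), with 0 at 1.5-fold (3.73% in either direction). The median log2 change of the tested members was -0.37 at 24 h, 0.14 at 48 h and 0.20 at 72 h against 0 h, and 0.91 from 24 to 48 h. The same medians over all genes were -0.05, -0.03, -0.03 and 0.03. The comparisons with 0 h share the arrays at 0 h, and the members were picked by name, so these counts describe the list and test nothing about it. Smad6, counted as lower at each time, entered the test only through its arrays at 0 h.

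**Figure D1:**
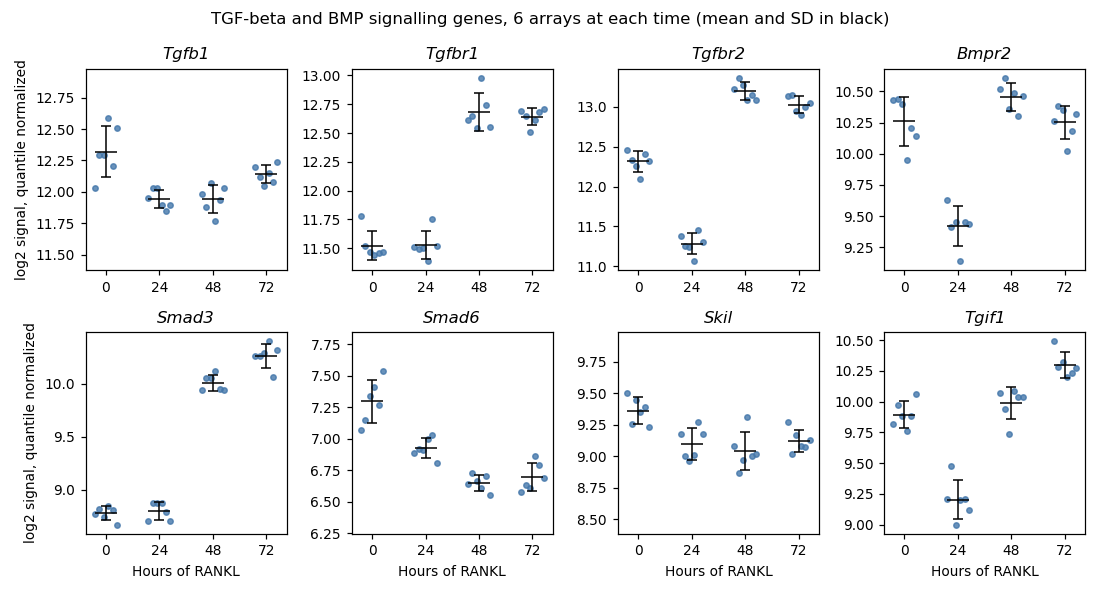
Log2 signal (quantile normalized) of the 8 tested members on each of the 24 arrays against hours of RANKL, with the mean and SD of the 6 arrays of a time in black and a separate vertical scale for each gene. Tgfbr2 fell at 24 h and lay above its 0 h arrays at 48 h and 72 h, Tgfbr1 and Smad3 stepped up between 24 and 48 h, and Smad6 went down.

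Tgfb1, on chromosome 7, encodes the TGF-beta isoform that macrophages make. Its log2 signal was 12.03, 12.29 and 12.59 (lowest, median and highest of 6 arrays) at 0 h, 11.85, 11.93 and 12.03 at 24 h, 11.77, 11.96 and 12.07 at 48 h, and 12.05, 12.14 and 12.24 at 72 h. The arrays at 0 h were the highest and the most spread, and their lowest array lay within the range of the later times. The change from 0 h was -0.38 on the log2 scale at 24 h (SE 0.065, adjusted p = 4.42e-06), -0.38 at 48 h (adjusted p = 4.06e-06) and -0.18 at 72 h (adjusted p = 0.0134). An exact permutation test over the 12 arrays of each pair of times gave a two-sided p of 0.00649 at 24 h and at 48 h and 0.0714 at 72 h. Without replicate 4 of 0 h the change at 72 h was -0.13 (adjusted p = 0.0663), and without replicate 6 it was -0.14 (adjusted p = 0.0532). From 48 to 72 h the signal rose by 0.19 (adjusted p = 0.0177), and 24 and 48 h did not differ beyond their spread (difference 0.00, 95% interval -0.13 to 0.13). In order of level 0 h came first, then 72 h, and 48 and 24 h last.

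Tgfbr2, on chromosome 9, encodes the type II receptor that binds TGF-beta. With the brightest of its 4 probes, the log2 signal was 12.10, 12.32 and 12.46 at 0 h, 11.07, 11.28 and 11.45 at 24 h, 13.08, 13.19 and 13.36 at 48 h, and 12.89, 13.02 and 13.15 at 72 h. All arrays at 24 h lay below, and all at 48 and 72 h above, those at 0 h. Against 0 h this was a 2.04-fold fall by 24 h (log2 change -1.03, SE 0.062, adjusted p = 6.1e-17), followed by levels 1.84-fold above 0 h by 48 h (adjusted p = 3.52e-15) and 1.64-fold above it by 72 h (adjusted p = 1.1e-12). Between 24 and 48 h it rose 3.77-fold (log2 change 1.91, adjusted p = 1.95e-25), which ranked 266 by size among the 9917 genes.

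From 48 to 72 h Tgfbr2 changed by -0.17 with this probe (adjusted p = 0.027), a direction that the other kept probes did not share. The next kept probe changed by -0.21, 0.72 and 0.97 against 0 h at 24, 48 and 72 h, and rose by 0.25 from 48 to 72 h. The third changed by -0.15, -0.02 and 0.10, of which the last pair did not pass (adjusted p = 0.717 and 0.124), and it differed by 0.12 from 48 to 72 h (adjusted p = 0.0987). The fall at 24 h was thus seen with each kept probe and was largest with the brightest, the rise over 0 h with 2 of the 3. The remaining probe was detected on no array.

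Tgfbr1, on chromosome 4, encodes the type I receptor kinase that phosphorylates SMAD2 and SMAD3. Its log2 signal was 11.44, 11.47 and 11.78 at 0 h, 11.39, 11.51 and 11.75 at 24 h, 12.54, 12.63 and 12.98 at 48 h, and 12.51, 12.67 and 12.71 at 72 h. The arrays fell into a low pair of times and a high pair that did not overlap. The level was 2.22-fold above that of 0 h by 48 h (log2 change 1.15, SE 0.065, adjusted p = 7.35e-18) and remained 2.17-fold above it by 72 h (adjusted p = 1.46e-17). At 24 h it did not differ beyond the spread (difference 0.00, 95% interval -0.13 to 0.14, adjusted p = 0.968), nor did 72 h from 48 h (-0.03, 95% interval -0.17 to 0.10).

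The other kept Tgfbr1 probes also rose at 48 and 72 h, by 0.51 and 0.56 in one case and by 0.80 and 1.05 in the other. The dimmer of them was also higher at 24 h, by 0.33 (adjusted p = 0.000267), and rose by 0.25 from 48 to 72 h (adjusted p = 0.0103). No array at 0 h detected it, so its size against 0 h is set by the array background. The remaining probe was detected on no array.

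Bmpr2, on chromosome 1, encodes the type II receptor of BMPs. Its log2 signal was 9.95, 10.30 and 10.44 at 0 h, 9.14, 9.45 and 9.63 at 24 h, 10.30, 10.48 and 10.61 at 48 h, and 10.02, 10.29 and 10.38 at 72 h. The arrays at 24 h lay below all others, and those of the other times overlapped. At 24 h the level was 1.79-fold lower than at 0 h (log2 change -0.84, SE 0.077, adjusted p = 5.88e-12), and it rose 2.05-fold from 24 to 48 h (adjusted p = 1.3e-14).

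At 72 h Bmpr2 did not differ from 0 h beyond the spread (difference -0.01, 95% interval -0.17 to 0.14, adjusted p = 0.889). The change of 0.19 from 0 to 48 h (adjusted p = 0.0238, exact permutation p = 0.0606, two-sided) and that of -0.21 from 48 to 72 h (adjusted p = 0.0323) were small, with overlapping arrays. The change to 48 h was 0.14 with the authors' processed values and 0.09 with median scaling (adjusted p = 0.168 and 0.364), and 0.13 without replicate 4 of 0 h (adjusted p = 0.107). All Bmpr2 values rest on 1 probe, for which the annotation gives no transcript, and the other 3 probes were detected on no array. The gene of its partner receptor, Bmpr1a on chromosome 14, had 2 probes that were detected on no array, with raw signals of at most 107.5. Its level here had only an upper bound at the background and was not compared.

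**Figure D2:**
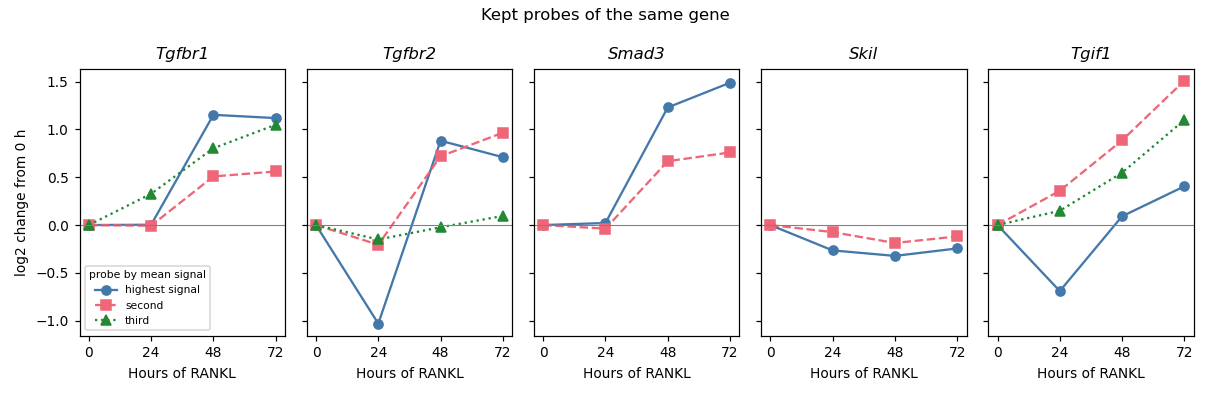
Log2 change from 0 h (vertical axis, mean of 6 arrays against mean of 6 arrays) at 24, 48 and 72 h of RANKL for each kept probe of the 5 members with over 1 kept probe, ordered by mean signal. The rises of Tgfbr1 and Smad3 at 48 h were shared by their probes, whereas at 24 h the Tgif1 probes went apart, with changes of -0.69, 0.36 and 0.15.

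Smad3, on chromosome 9, encodes a transcription factor that TGF-beta and activin receptors activate. Its log2 signal was 8.67, 8.79 and 8.85 at 0 h, 8.70, 8.83 and 8.87 at 24 h, 9.94, 10.00 and 10.12 at 48 h, and 10.06, 10.28 and 10.40 at 72 h. The arrays of the first 2 times overlapped and all lay well below those of the last 2. The level was 2.35-fold higher than at 0 h at 48 h (log2 change 1.23, SE 0.054, adjusted p = 3.85e-21) and 2.81-fold higher at 72 h (log2 change 1.49, adjusted p = 8.73e-24). At 24 h the difference was 0.02 (95% interval -0.09 to 0.13, adjusted p = 0.742).

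The further rise of Smad3 from 48 to 72 h was 0.26 (adjusted p = 0.000203), with overlapping arrays. The other Smad3 probe, detected on all 24 arrays, changed by -0.04, 0.67 and 0.76 against 0 h, and its difference of 0.09 from 48 to 72 h did not pass (adjusted p = 0.249). Like Tgfbr1, Smad3 was thus higher at 48 and 72 h than at 0 h with each kept probe.

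Smad6, also on chromosome 9, encodes an inhibitory Smad that acts mainly on BMP signalling. It had a single dim probe, whose log2 signals were 7.07, 7.31 and 7.54 at 0 h, 6.81, 6.92 and 7.03 at 24 h, 6.55, 6.65 and 6.73 at 48 h, and 6.58, 6.66 and 6.86 at 72 h. Detection was on 6 arrays before RANKL, on 1 array at 24 h and on 0 arrays of both later times. All arrays at 0 h lay above all later ones, and those at 24 h above those at 48 h. The measured log2 difference of 24 h from 0 h was -0.37, with 5 of the 6 arrays at 24 h not above background. At 48 and 72 h the signal was at least 1.2-fold and at least 1.19-fold lower than at 0 h, where each bound sets the probe against the lowest detected signal of the array. The probe entered the test only through its arrays at 0 h, so its p-values are not given. The measured difference from 24 to 48 h was -0.28, near the array background at both times, and has no bound. The signals at 48 and 72 h did not differ beyond their spread (0.05, 95% interval -0.08 to 0.17). The other inhibitory Smad, Smad7 on chromosome 18, had 1 probe that was detected on no array, with raw signals of at most 86.7, so it was not compared.

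Skil, on chromosome 3, encodes the corepressor SnoN, which binds SMAD complexes. Its log2 signal was 9.23, 9.37 and 9.5 at 0 h, 8.96, 9.09 and 9.27 at 24 h, 8.87, 9.01 and 9.31 at 48 h, and 9.02, 9.10 and 9.27 at 72 h. The arrays at 0 h were highest at their median, and each later time reached into their range. Compared with 0 h the signal fell by 0.27 on the log2 scale by 24 h (adjusted p = 0.000544), a 1.2-fold change, by 0.32 by 48 h (adjusted p = 4.13e-05) and by 0.24 by 72 h (adjusted p = 0.0011). The exact permutation p was 0.00649 at each time (two-sided). The later times did not differ from each other beyond their spread, with -0.06 from 24 to 48 h (95% interval -0.19 to 0.08) and 0.08 from 48 to 72 h (-0.06 to 0.21). The other kept probe changed by -0.07, -0.19 and -0.12, and only that at 48 h passed (adjusted p = 0.00433).

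Tgif1, on chromosome 17, encodes a homeobox corepressor that competes with coactivators on SMAD2 and SMAD3. With its brightest probe the log2 signal was 9.76, 9.88 and 10.06 at 0 h, 9, 9.21 and 9.48 at 24 h, 9.74, 10.04 and 10.09 at 48 h, and 10.20, 10.27 and 10.49 at 72 h. The arrays at 24 h were lowest, those at 0 and 48 h overlapped, and those at 72 h were highest. The signal dropped 1.61-fold from 0 to 24 h (adjusted p = 3.07e-11) and by 72 h exceeded that of 0 h by 1.32-fold (adjusted p = 1.88e-06). The difference at 48 h was 0.09 (95% interval -0.05 to 0.23, adjusted p = 0.226).

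The other Tgif1 probes gave another course. One changed by 0.36, 0.89 and 1.51 against 0 h at 24, 48 and 72 h (adjusted p = 9.05e-07, 3.40e-16 and 4.05e-23), and the other by 0.15, 0.55 and 1.10 (adjusted p = 0.0336, 8.84e-10 and 8.02e-18). The direction of Tgif1 at 24 h therefore turned with the probe, whereas each kept probe was higher at 72 h than at 0 h, higher at 48 h than at 24 h and higher at 72 h than at 48 h. RefSeq lists 5 promoter windows for Tgif1, and 2 of these held CAGACA.

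Over the 40 comparisons of a tested member between 2 times, the 6 arrays of one time lay wholly above or below those of the other in 20. An exact permutation test over the 12 arrays always gives its smallest possible p, 0.00216, where arrays do not overlap, so it adds nothing to this count. By comparison, 4 members did not overlap at 24 h against 0 h (46.8% of all genes), 4 at 48 h (53.3%), 5 at 72 h (54.3%), 6 from 24 to 48 h (57.1%) and 1 from 48 to 72 h, which was Tgif1 (19.5%). Smad6 was among these in each comparison but the last, although it entered the test only through its arrays at 0 h. Its step from 24 to 48 h lay near the array background at both times.

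Across the 24 arrays, the gene whose log2 signal followed that of a member most closely was Rffl for Tgfbr2 (Pearson's r = 0.992), Kmt2a for Smad3 (0.992), Slc8a1 for Tgfbr1 (0.984), Ppm1h for Bmpr2 (0.967), Mcat for Smad6 (0.963), Slc15a3 for Tgif1 (0.955), Alkbh6 for Tgfb1 (0.867) and Skil with Slc25a37 (0.82). These values describe the shared course over 4 times on the same arrays, and carry no test.

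**Figure D3:**
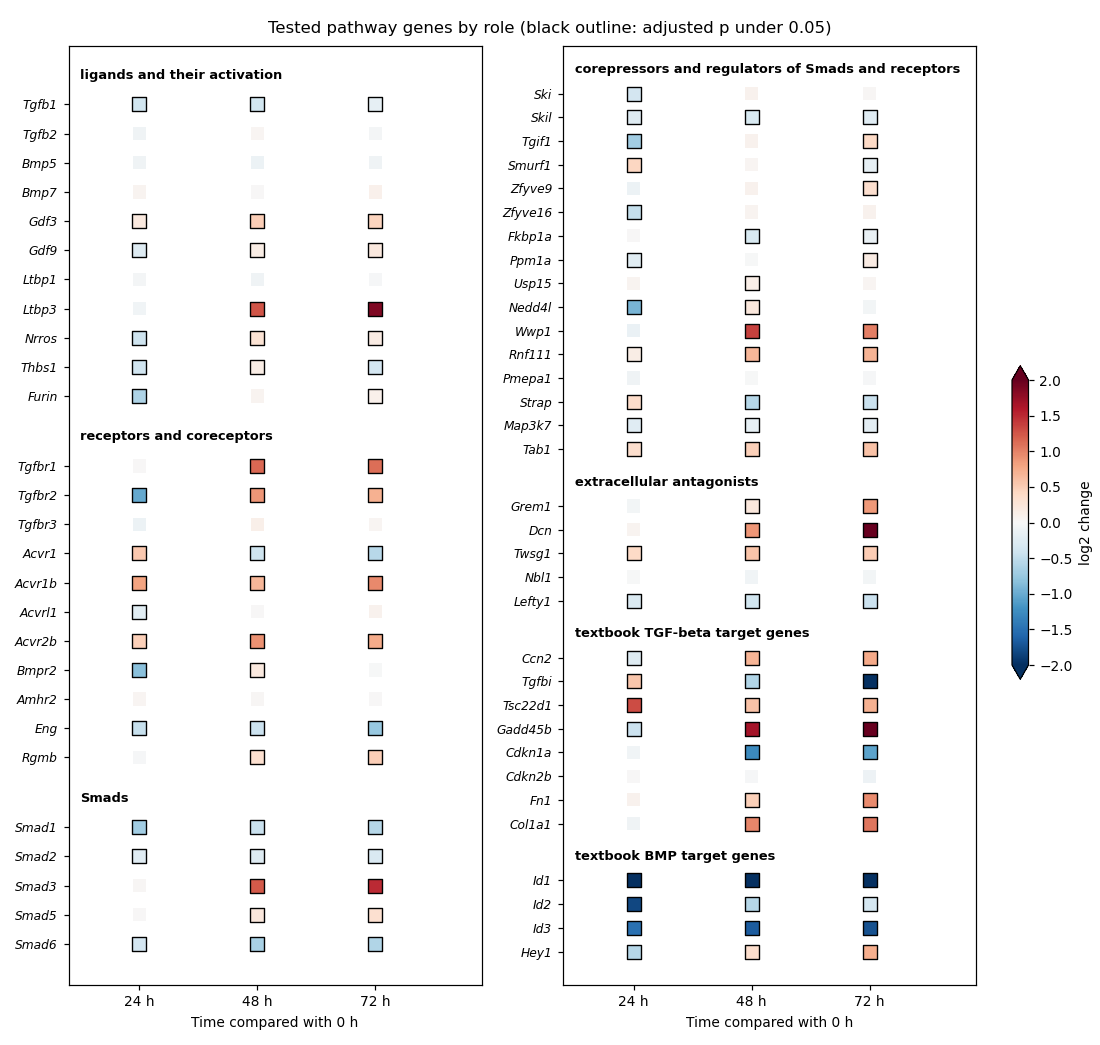
Log2 change from 0 h (colour) at 24, 48 and 72 h of RANKL for the tested genes of 7 lists of the pathway, each list under its role, with a black outline where the adjusted p was under 0.05. Tgfbr1, Smad3, Ltbp3, Wwp1 and Gadd45b were higher at 48 and 72 h, and Id1, Id2 and Id3 were lower at all 3 times.

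The rest of the pathway was read from lists by role, whose counts stand beside 29.2%, 33.1% and 34.2% of all genes higher and 37.8%, 39.2% and 39.4% lower than at 0 h at 24, 48 and 72 h, and whose median log2 changes stand beside -0.05, -0.03 and -0.03 over all genes. Of 33 ligands and genes of their activation, 11 were tested, and 1, 5 and 5 of them were higher and 5, 1 and 2 lower than at 0 h at 24, 48 and 72 h (medians -0.08, 0.06 and 0.10). Ltbp3, whose product holds latent TGF-beta in the matrix, had log2 signals of 7.58, 7.70 and 8.02 at 0 h and 9.44, 9.65 and 9.72 at 72 h. This was a 3.66-fold rise (adjusted p = 5.62e-23) with no overlap of arrays, of which 2.39-fold was reached by 48 h (adjusted p = 1.17e-17). Gdf3, a ligand of the TGF-beta family, was 1.41-fold above 0 h by 48 h (adjusted p = 6.88e-09). Furin, the protease that cleaves TGF-beta precursors, showed a 1.54-fold fall from 0 to 24 h (adjusted p = 1.58e-14), and Nrros, which anchors latent TGF-beta on macrophages, a 1.33-fold fall (adjusted p = 2.67e-08). Their changes at 72 h, 0.10 and 0.16, turned direction under other scalings. Tgfb2 passed at none of the 3 times, and Tgfb3, Bmp2, Bmp4 and Bmp6 were detected on no array.

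Of 17 receptors and coreceptors, 11 were tested, with 3, 6 and 5 higher and 4, 2 and 2 lower than at 0 h at 24, 48 and 72 h (medians -0.02, 0.20 and 0.09). The higher genes held Acvr1b at each time and Rgmb at 48 and 72 h. No array at 0 h detected either, so these counts depend in part on which genes passed detection. Acvr1b, which encodes the activin type I receptor that also acts on SMAD2 and SMAD3, had log2 signals of 6.84, 6.90 and 7.06 at 0 h, where it was detected on no array, so that it entered the test only through later times, and 7.66, 7.73 and 7.76 at 24 h. It was at least 1.59-fold, 1.44-fold and 1.77-fold higher at the 3 times, and its p is not given for that reason. Its rise at 24 h thus came while Tgfbr2 and Bmpr2 were lower. Tgfbr3, the coreceptor betaglycan, passed at none of the 3 times against 0 h. From 24 to 48 h, 7 of the 11 were higher and 2 lower (39.2% and 34.6% of all genes). Rgmb, detected on 1 array at 24 h, was among the 7. Acvr1, Eng and Rgmb were named after their values were seen. Acvr1 was 1.45-fold higher at 24 h than at 0 h and fell 1.94-fold from 24 to 48 h (adjusted p = 8.01e-10 and 1.48e-16), and Eng changed by -0.45, -0.42 and -0.76 against 0 h.

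Of 8 Smads, 5 were tested, with 0, 2 and 2 higher and 3, 3 and 3 lower than at 0 h (medians -0.24, -0.26 and -0.31). Smad6, among the lower ones at each time, entered the test only through its arrays at 0 h. Smad3 was the only 1 of the 5 to reach 1.5-fold upward. Smad1, a BMP-activated Smad, with its brightest probe, dropped 1.63-fold from 0 to 24 h (adjusted p = 2.55e-12) and 1.49-fold from 0 to 72 h, but other kept probes gave 0.04 and 0.05 at 72 h. Over the 3 times against 0 h its 4 other kept probes gave 12 results. Of these, 5 kept the call and direction, 4 no longer passed and 3 turned. Smad5 was 1.25-fold higher at 72 h with its brightest probe (adjusted p = 6.74e-06) and changed by -0.17 with the other. Smad4, the shared partner of the activated Smads, had no probe with its symbol in the annotation and was not analysed here.

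Among 20 corepressors and regulators of Smads and receptors, 16 were tested, with 4, 5 and 6 higher and 7, 4 and 5 lower than at 0 h (medians -0.13, 0.07 and 0.03). Wwp1, a ubiquitin ligase known to target TGFBR1 with SMAD7, had log2 signals of 10.48, 10.92 and 11.10 at 0 h and 12.19, 12.25 and 12.29 at 48 h, a 2.58-fold rise (adjusted p = 5.94e-19). Rnf111, the ubiquitin ligase Arkadia that degrades SKIL and SMAD7, was 1.59-fold higher at 48 h and 1.62-fold at 72 h (adjusted p = 1.19e-13 and 3.34e-14). Nedd4l, a ligase that acts on activated SMAD2 and SMAD3, dropped 1.9-fold from 0 to 24 h (adjusted p = 1.95e-15) and rose 2.22-fold from 24 to 48 h (adjusted p = 1.59e-18), as Bmpr2 and Tgfbr2 also fell and rose. Pmepa1, a membrane inhibitor of SMAD activation, passed at none of the 3 times.

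Of 15 extracellular antagonists, 5 were tested, and 1, 3 and 3 were higher and 1, 1 and 1 lower than at 0 h (medians -0.01, 0.23 and 0.52). Of the 3 higher at 48 h, Grem1 was detected on 0 arrays of either time and is no measured rise. Dcn, which encodes the matrix proteoglycan decorin that binds TGF-beta, was at 6.95, 7.07 and 7.22 at 0 h and at 9, 9.18 and 9.25 at 72 h, and rose 4.23-fold (adjusted p = 4.71e-26), with 3 of the 6 arrays at 0 h above background. Grem1, an antagonist of BMPs, was at least 1.44-fold higher at 72 h, where 5 arrays detected it. No array of an earlier time did, so it entered the test only through 72 h and its p is not given. Lefty1, detected on 6 arrays at 0 h and 2 at 72 h, had a measured log2 difference of -0.42 between these times (adjusted p = 7.79e-08). Of 8 stromal markers 4 were tested, and 3 of these were higher at 48 and 72 h. Their summed signal was 569 to 620 at 0 h, 470 to 535 at 24 h, 771 to 874 at 48 h and 870 to 943 at 72 h, while Col3a1, Lepr and Pdgfrb were detected on no array. The part of such cells in the rises of Dcn and Grem1 was not tested.

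Textbook targets of the 2 branches were then examined. Of 10 BMP targets, 4 were tested, and 0, 1 and 1 were higher and 4, 3 and 3 lower than at 0 h at 24, 48 and 72 h (medians -1.66, -1.11 and -1.04). Id1, which encodes an inhibitor of basic helix-loop-helix factors, had log2 signals of 10.43, 10.57 and 10.66 at 0 h, 7.74, 7.82 and 7.96 at 24 h, 6.72, 6.85 and 7.06 at 48 h, and 6.73, 6.87 and 6.96 at 72 h. The arrays at 0 h lay far above all later ones. Id1 dropped 6.63-fold in the first 24 h (adjusted p = 2.96e-30). By 48 h, when 1 of 6 arrays detected it, the measured log2 difference from 0 h was -3.68 (adjusted p = 9.76e-35), and by 72 h, when no array did, it was at least 11.4-fold below 0 h (adjusted p = 5.78e-35). By size its change at 24 h ranked 14 among the 9917 genes.

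Id2, of the same family, had log2 signals of 11.06, 11.10 and 11.12 at 0 h, 9.11, 9.26 and 9.46 at 24 h, 10.41, 10.52 and 10.62 at 48 h, and 10.67, 10.73 and 10.88 at 72 h. It dropped at 24 h and came back in part, from a 3.52-fold fall in the first 24 h (adjusted p = 7.29e-27) to levels 1.48-fold and 1.27-fold below 0 h by 48 and 72 h (adjusted p = 1.93e-12 and 1.22e-07). Id3, named here after its values were seen, changed by -1.50, -1.66 and -1.74 at the 3 times (adjusted p = 6.53e-19, 1.75e-20 and 3.69e-21). Hey1, also a target of Notch, fell at least 1.3-fold by 24 h, when no array detected it (adjusted p = 3.63e-11), and by 72 h lay 1.65-fold above 0 h (adjusted p = 3.76e-14). The Id genes are also controlled by other pathways.

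**Figure D4:**
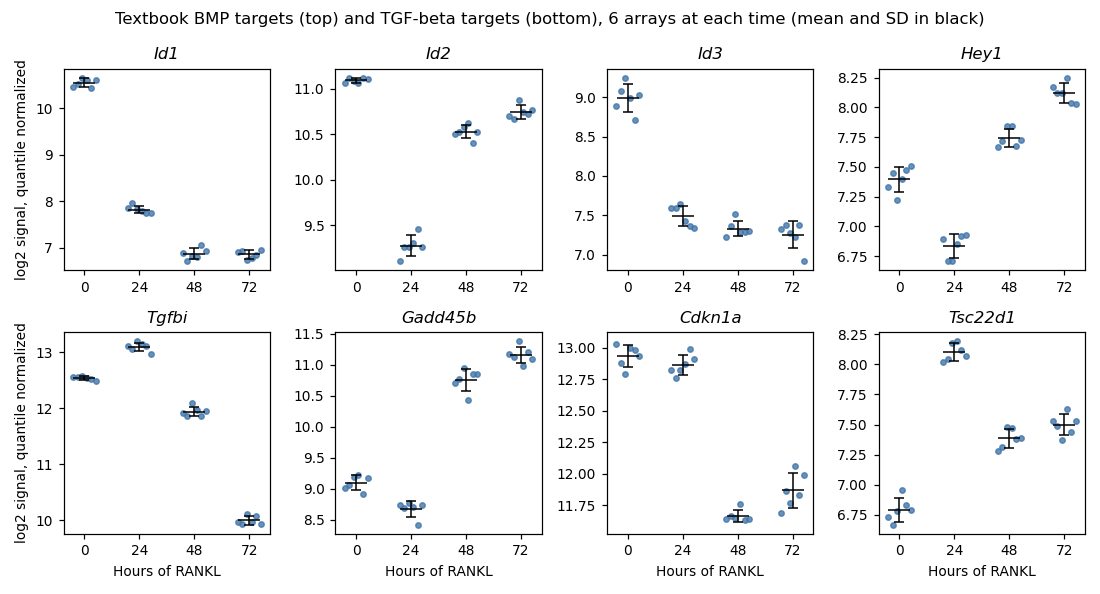
Log2 signal (quantile normalized) of 4 textbook BMP targets (top) and 4 textbook TGF-beta targets (bottom) on each of the 24 arrays against hours of RANKL, with the mean and SD of the 6 arrays of a time in black and a separate vertical scale for each gene. Id1, Id2 and Id3 dropped at 24 h, and Id2 alone of these came back in part at 48 and 72 h, while Gadd45b and Tgfbi ended 4.19-fold above and 5.84-fold below 0 h.

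Of 10 TGF-beta targets, 8 were tested, with 2, 5 and 5 higher and 2, 2 and 2 lower than at 0 h at 24, 48 and 72 h (medians -0.03, 0.54 and 0.73). Those higher at 48 and 72 h included Tsc22d1, Col1a1 and Fn1, which entered the test only through later times. The counts and medians thus depend in part on which genes passed detection. Gadd45b, a stress-response gene that TGF-beta induces through Smads, had log2 signals of 8.91, 9.12 and 9.22 at 0 h and 10.99, 11.15 and 11.38 at 72 h. After a 1.34-fold fall by 24 h (adjusted p = 3.85e-06) it lay 3.18-fold above 0 h by 48 h (adjusted p = 3.05e-21) and 4.19-fold above it by 72 h (adjusted p = 3.32e-24). Its arrays stepped up between the same times as those of Tgfbr1 and Smad3, a step in which 39.2% of all genes were higher. A link between these changes was not tested. Tsc22d1, a TGF-beta-stimulated gene, was detected on no array at 0 h, so that it too entered the test only through later times and its p is not given. It was at least 2.07-fold higher at 24 h, then at least 1.26-fold and 1.36-fold higher.

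Not all TGF-beta targets went up. Tgfbi, which encodes a secreted matrix protein named for its induction by TGF-beta, had log2 signals of 12.49, 12.54 and 12.57 at 0 h, 12.96, 13.10 and 13.19 at 24 h, 11.86, 11.93 and 12.09 at 48 h, and 9.93, 9.97 and 10.11 at 72 h. It rose 1.46-fold by 24 h and ended 5.84-fold below 0 h (adjusted p = 8.77e-13 and 6.18e-33), and its fall from 48 to 72 h, 3.84-fold (adjusted p = 6.11e-28), ranked 5 by size among all genes. Cdkn1a, the cell cycle inhibitor p21, lay 2.42-fold and 2.1-fold below 0 h by 48 and 72 h (adjusted p = 1.52e-21 and 2.11e-19), while Cdkn2b, the inhibitor p15, passed at none of the 3 times. Col1a1 and Fn1, which encode matrix proteins, were named after their values were seen. Col1a1, detected on 2 of 6 arrays at 0 h and 0 at 24 h, had measured log2 differences from 0 h of 0.98 and 1.08 at 48 and 72 h. Fn1, detected on no array at 0 and 24 h, was at least 1.02-fold and 1.41-fold higher. Both entered the test only through the later times and stand beside the rise of stromal markers given above, of which Col1a1 is one.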

How the data were processed

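The members and the gene lists were chosen with earlier results of these data known. The authors extracted a signal intensity for each probe with Illumina GenomeStudio, together with a deposited detection p-value against control beads of that array, and did not scale these signals between arrays. The authors also deposited processed values on a log2 scale. The methods name a log transformation and quantile normalization, but the medians of the processed arrays ran from 1.899 to 1.992, so the distributions were not equal in this table. For the results, signals were log2 transformed and quantile normalized over all arrays (limma 3.58.1, R 4.3.3), without background correction beyond this. Of 45281 probes, 34885 have a single symbol in the annotation, 18 have several and 10378 have none. A probe was kept if at least 3 of the 6 arrays of any time detected it at p under 0.05 (18346 probes), and the brightest kept probe by mean stood for each of 9917 genes. The 4 times were fitted together (lmFit, contrasts.fit, eBayes with a trend, 20 residual degrees of freedom), with Benjamini-Hochberg adjustment across all 9917 genes. Where no array of a time detected a probe, its fold is a lower bound, set per array against its own signal or the lowest signal detected there, whichever was higher. The script was tested on simulated data. Named beside the members are, from each pathway list, up to 2 genes with the largest rise, 2 with the largest fall and 1 that passed at none of the 3 times. The alternatives were normexp, the processed values, other scalings, filters and probe choices, no trend, array weights, the methods' t-test, the 12 arrays compared, the replicate block and each array left out. The labels and the methods name different RNA labelling kits. The number of arrays limits the precision.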

Additional observations from a re-analysis of the deposited data

Results flagged for a closer look

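Among 144 groups of 6 arrays (36 genes at 4 times), 13 had 1 array set apart from the rest of its group by more than Dixon's critical value, where chance flags about 1 in 20. For Tgfbr1, the highest array was replicate 1 at 0 h, at a log2 signal of 11.78 against 11.52 for the next, and replicate 5 at 24 h, at 11.75 against 11.52. These arrays lay below all arrays of 48 and 72 h.

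Of the other Smads, Smad5 had its highest array at 0 h at 8.30 (next 8.11). Among the regulators, Wwp1 had its lowest array at 0 h at 10.48 (next 10.90), Nedd4l its highest at 48 h at 11.36 (next 11.17), and Rnf111 its highest at 0 h at 7.73 (next 7.53) and at 48 h at 8.30 (next 8.20). The antagonists had their lowest arrays at 72 h, Grem1 at 6.91 (next 7.57), Lefty1 at 6.78 (next 6.99) and Nbl1 at 6.77 (next 7.02). Among the targets, Gadd45b had its lowest array at 24 h at 8.42 (next 8.69), Cdkn1a its highest at 48 h at 11.76 (next 11.66) and Id3 its lowest at 72 h at 6.92 (next 7.23). These 13 values came from 9 arrays, 4 of them with 2 values each, and their cause was not tested.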

How the results depend on the processing

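Over 124 pairs of a named gene and a comparison, 3133 of 3292 values under an alternative kept their side of the threshold and, where called, their direction (41 of these, called in neither fit, differed in sign), 101 no longer passed (37 of these with Bonferroni adjustment), 36 newly passed and 22 turned. With 1 array left out, 1457 of 1488 did so (12 of these uncalled and of the other sign) and no called value turned. The counts of genes called were 1785, 2281, 2519, 2868 and 370 with 1.5-fold required (24, 48 and 72 h against 0 h, 48 against 24 h, 72 against 48 h), and 2287, 2867, 3032, 3450 and 632 with the methods' t-test and Bonferroni adjustment. The members called became 3, 4, 4 and 0 with 1.5-fold and 1, 3, 3 and 0 with Bonferroni, at 24, 48 and 72 h against 0 h and at 72 against 48 h, and 3 at 72 against 48 h with median scaling. Leaving out 1 array gave 6479 to 6565, 7048 to 7136, 7160 to 7252, 7177 to 7282 and 3413 to 3583 genes, and 6 to 6, 6 to 7, 6 to 7, 6 to 6 and 3 to 5 members. The 3 came without replicate 2 of 48 h and without replicate 4 of 72 h.

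Tgfbr2 from 48 to 72 h turned to 0.06 with the mean of its probes, 0.25 with the next probe and 0.12 with the dimmest, which gave -0.02 from 0 to 48 h. Tgfbr1 from 48 to 72 h was 0.25 with its dimmest kept probe. Tgif1 at 24 h was 0.36 and 0.15 with its other probes. Of the other genes, Furin turned to -0.16 at 48 h with 75th percentile scaling and, at 72 h, to -0.07, -0.13 and -0.12 with the processed values, median and 75th percentile scaling, and Nrros at 72 h to -0.06 and -0.05 with the last 2 of these. With other probes Smad5 was -0.11 and -0.17 at 48 and 72 h, and Smad1 was 0.12 at 48 h and 0.04 and 0.05 at 72 h. The cause was not tested.

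Several small changes of members lost their call. From 48 to 72 h, Tgfb1 was 0.16 with the processed values, 0.14 with median scaling and 0.16 without replicate 4 of 48 h, and Smad3 was 0.18 with median scaling. Over the same step Tgfbr2 was -0.14 to -0.16 without replicate 2 or 3 of 48 h or replicate 3 or 4 of 72 h, and Bmpr2 was -0.16 to -0.19 without replicate 1 or 2 of 48 h or replicate 4 or 5 of 72 h. From 0 to 48 h Bmpr2 was 0.07 with 75th percentile scaling, 0.17 without replicate 6 of 0 h and 0.16 without replicate 2 of 48 h. At 72 h it was called lower with median and 75th percentile scaling, at -0.20 and -0.19. Among all genes, 43.6% of calls at 24 h were higher, and 32.2% with 75th percentile scaling. From 48 to 72 h it was 47.4%, against 34.2% with the processed values, 28% with median scaling and 34.7% with Bonferroni adjustment. No label says what the array numbers share, and not every pair of the same number deviated together, so they were not taken as pairs. Deviations of the 36 same-numbered pairs correlated at -0.207 to 0.494 (25 over 0.1, median 0.137, against -0.0137 for different numbers), and 10 of 24 arrays correlated best with their own number, a hint from the data of something shared. With the replicate block 6929, 7431, 7500, 7497 and 4090 genes and 6, 7, 7, 6 and 5 members were called.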
